A study of Mus musculus with 12 samples.

Results

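The 10 neuropeptide genes described here are Tac1, Npy, Penk, Gal, Adcyap1, Calca, Calcb, Cartpt, Sst and Vip. They were taken by name from a count table of 24489 mouse genes, whatever their values, and all 10 are accounted for. The question was which classes of cells of the developing cochlea held these genes (neurons of the spiral ganglion, glia, otic mesenchyme or hair cells) and at which stage.

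The cells were sorted one by one, as tdTomato+ cells dissociated from the mouse cochlea, into 384-well plates and read with Smart-seq2, a full-length method without molecule barcodes. Each of the 12 plates is 1 sample, made from pooled animals, and was used as 1 replicate: 2 plates at E14.5, 2 at E15.5, 3 at E16.5, 1 at E17.5, 2 at E18.5 and 2 at P3 (embryonic day and postnatal day). All animals carried the reporter Ai14, which makes tdTomato where Cre has acted, and wild type was otherwise the only condition. The strain label is PVcre;Ai14, Cre from the parvalbumin gene, on 11 plates and TrkCcre on replicate 2 of E14.5, whereas the study's methods name the TrkC driver for all cells of E14.5, so only the stage was used here. Since both drivers label chosen cells, a class can be missing from a plate because the driver or the dissection left it out. The P3 plates came from an earlier experiment of the same laboratory. No label says that plates of one stage came from separate litters, so p-values measure the spread between these plates.

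Neuropeptides are short signalling peptides that are cut from larger precursor proteins by enzymes of the secretory route, packed into dense core vesicles and released to act on G protein-coupled receptors. In sensory ganglia, substance P (from Tac1) and CGRP (from Calca and Calcb) are classic products of small afferent neurons. Spiral ganglion neurons (SGNs) carry sound signals from the hair cells to the brain: type I neurons, of subtypes Ia, Ib and Ic, contact inner hair cells, and the few type II neurons contact outer hair cells. NPY is known from sympathetic neurons and from glia that wrap olfactory axons, enkephalin (Penk) from brain and from developing mesenchyme, and galanin (Gal) and PACAP (Adcyap1) from neurons that develop or regrow.

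Of 4608 wells, 4226 passed the filters of the study's methods (over 1000 genes and under 5% spike-in reads). Its reporting summary gives other cut-offs. The study's own set of cells was smaller and its clusters were of neurons, hair cells and otic mesenchyme, without one of glia. Clusters were named from marker genes as SGN-like (2182 cells), glia-like (1117 cells), otic mesenchyme-like (OM, 450 cells) and hair cell-like (HC, 39 cells). A further 407 cells stayed unnamed, 25 were epithelial-like and 6 immune-like. Neuropeptide genes and their pathway lists were never used to form the clusters. Plate totals ran from 80997594 to 303906928 counts, with a median per cell between 232473 and 1092427. Each class held its own 9 markers: in SGN-like sums they reached 11462 to 14609 CPM (counts scaled to a total of 1000000). Their 9 glia markers ranged from 17.54 to 107 CPM on the 6 plates of the series named SS2_20 (E14.5, E15.5, E16.5 replicate 3, E17.5), from 569 to 661 CPM on SS2_18 (E16.5 replicates 1 and 2), from 2388 to 2417 CPM on SS2_19 (E18.5) and from 2514 to 3248 CPM on SS2_15 (P3). The plate series therefore moves with the stage. Glia and OM were mostly cells of SS2_20 plates. The sums of 5 to 17 glia-like or OM-like cells from the SS2_18 and SS2_19 plates held 5841 to 8404 CPM of the SGN markers, against 38.3 to 170 CPM on the SS2_20 plates. No 2 wells held the same counts.

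Levels below are counts of 1 gene summed over the cells of a class in 1 plate (at least 5 cells), as CPM of that sum. They compare cell classes within a gene, never 1 gene with another, since long and short transcripts give different counts. Such a sum cannot tell fewer cells holding a gene from less RNA per cell. Shares of cells with at least 1 read and limits set by a count of 0 cover counting error only. Tests are edgeR's quasi-likelihood test with Benjamini-Hochberg adjustment over all genes tested, called at an adjusted p under 0.05, and fold changes are given as log2 ± SE. The SE is the absolute log2 divided by the square root of the test's F statistic.

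In RefSeq's annotation of GRCm38.p6, Tac1 lies at chr6:7555061-7562978, Npy at chr6:49822710-49829507, Gal at chr19:3409915-3414544, Penk at chr4:4133536-4138815, Adcyap1 at chr17:93198245-93206541, Cartpt at chr13:99898483-99910179, Sst at chr16:23889573-23891342 and Vip at chr10:5639193-5647617. Calca (chr7:114625981-114636910) and Calcb (chr7:114716555-114723368) are paralogs that lie 79645 bases apart. Only uniquely mapped reads were kept, so reads that map to both would have been dropped, and their values are uncertain to that extent. The table of promoters held entries for 8 of the 10 genes, all but Penk and Calcb. The 250 bases before the start of 3 genes are shown because each stood out in another class or stage: Tac1 in type II-like neurons, Npy in glia, and Gal in early neurons and hair cells. They are from RefSeq, GRCm38.p6, 5′ to 3′ on the gene's strand, with capitals for TGACG or its reverse complement, the core motif that CREB and related factors bind (Tac1 chr6:7554811-7555060, plus strand; Npy chr6:49822460-49822709, plus strand; Gal chr19:3414545-3414794, minus strand).
Tac1: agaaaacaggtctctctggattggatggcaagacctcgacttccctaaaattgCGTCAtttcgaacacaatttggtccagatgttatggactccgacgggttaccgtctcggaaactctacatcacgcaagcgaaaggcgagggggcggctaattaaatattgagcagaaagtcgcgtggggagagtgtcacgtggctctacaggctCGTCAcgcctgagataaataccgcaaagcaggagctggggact
Npy: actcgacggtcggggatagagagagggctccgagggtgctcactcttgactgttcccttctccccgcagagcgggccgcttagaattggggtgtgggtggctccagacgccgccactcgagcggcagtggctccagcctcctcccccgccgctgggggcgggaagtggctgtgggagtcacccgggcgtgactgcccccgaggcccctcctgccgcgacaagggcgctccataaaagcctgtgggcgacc
Gal: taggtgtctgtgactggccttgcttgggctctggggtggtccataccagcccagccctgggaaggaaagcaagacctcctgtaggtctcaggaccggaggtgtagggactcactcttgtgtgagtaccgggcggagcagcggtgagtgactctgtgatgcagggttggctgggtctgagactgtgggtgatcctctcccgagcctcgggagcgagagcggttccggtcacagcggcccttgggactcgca
On either strand, the core motif TGACG stood in 6 of the 8 genes with a window (Adcyap1, Calca, Cartpt, Sst, Tac1 and Vip; in Tac1 at 197 and 43 bases before the start), and in 17.8% of all 32851 windows. The full palindrome TGACGTCA, which contains the core motif, stood in Cartpt and Sst and in 1.55% of all windows. TATAAA stood in Adcyap1 and Vip and in 12.4% of all windows. These are matches of letters, not shown sites of binding.

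The 10 genes divided among the classes. Glia held 87.9% of all Npy reads and OM held 81.5% of Penk reads. Neurons held 90.8% of Tac1, 91.5% of Adcyap1, 71.1% of Gal and 99.9% of Sst reads, while making up 51.6% of cells and 63.1% of counts. Calca was shared between SGNs (47.5%) and OM (46.5%). Hair cells, 0.923% of the cells, held 10.7% of Gal and 14.3% of Cartpt reads. Vip had 23 reads in 5 cells of all 4226 and Calcb 414 reads in 60 cells, so both were close to the detection limit in every class. With each cell thinned to 100000 counts, which left out 155 shallower cells of all classes, 74.5% of glia held exactly 1 of the 10 genes at 3 or more reads. Among SGNs 56.0% held none, 33.0% held 1, 9.0% held 2 and 1.86% held 3.

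**Figure D1:**
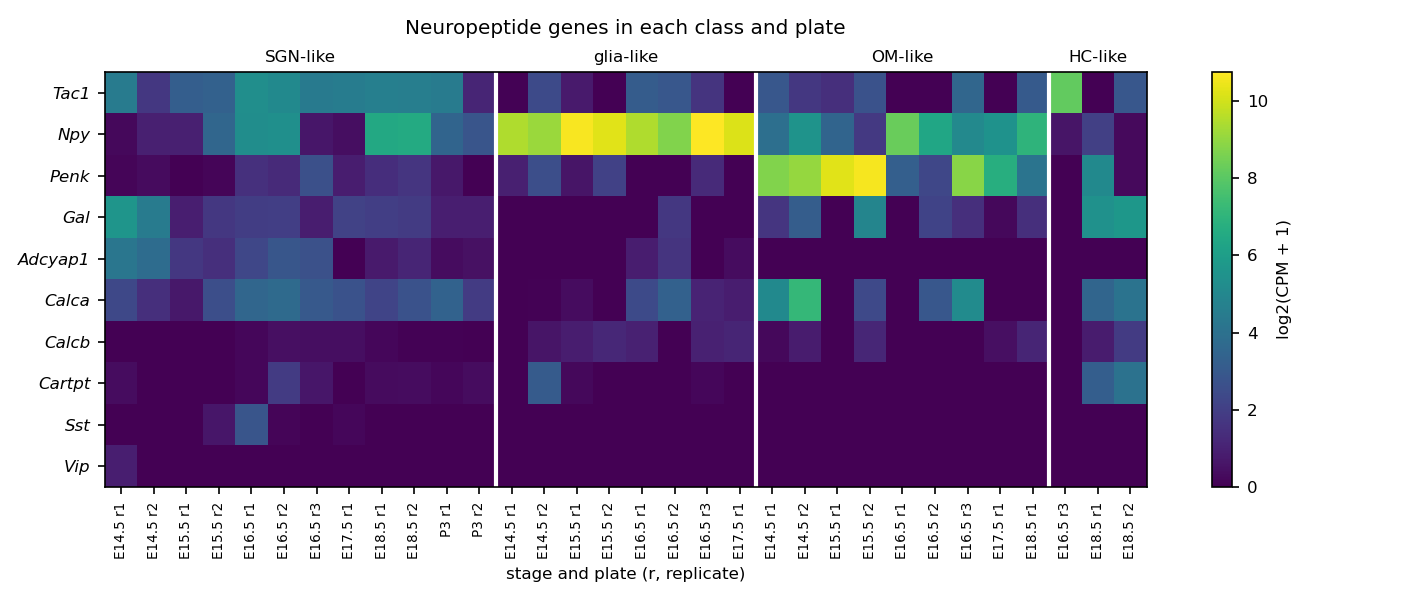
Heat map of the level of each neuropeptide gene, as log2(CPM + 1) on the colour scale, with 1 row per gene and 1 column per sum of a class in a plate (32 sums, r for replicate, classes parted by white lines). Npy is brightest in all 8 glia-like columns, Penk in the OM-like columns of the SS2_20 plates, and Gal and Cartpt are above 0 in both HC-like columns of E18.5.

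Npy, the precursor of neuropeptide Y, was the gene of the glia. In glia it read 702 and 560 CPM at E14.5, 1626 and 1252 at E15.5, 720, 422 and 1729 at E16.5 and 1165 at E17.5. Every glial sum lay above every SGN sum, where the highest value was 94.9 CPM. Npy was found in 77.6% of 1117 glial cells (95% exact interval 75.1 to 80.0). The difference of glia from SGNs was 8.04 ± 1.17 (adjusted p = 2.21e-05). Among 8 of these genes that could be tested between glia and SGNs 4 were called, where 42.3% of all genes were called. The 3 others were lower in glia: Gal (-8.21 ± 1.78, adjusted p = 0.000928), Adcyap1 (-6.59 ± 2.33, adjusted p = 0.0439) and Tac1 (-3.94 ± 1.46, adjusted p = 0.0357). The Adcyap1 call was lost without any one of 5 plates (replicates 1 and 2 of E14.5 and of E15.5, replicate 3 of E16.5; adjusted p = 0.0966 to 0.111) and that of Tac1 without any one of 5 plates (E14.5 replicate 1, both of E15.5, E16.5 replicate 3, E17.5; adjusted p = 0.0560 to 0.0827). Tac1 was also not called with glial genes kept for clustering (-2.35, adjusted p = 0.144) or against the neurons with a lower glia marker share (-3.46, adjusted p = 0.0820). Calcb, not called with all plates (2.60 ± 1.28, adjusted p = 0.111), was called higher in glia without E16.5 replicate 2 (3.28, adjusted p = 0.0420) and against those neurons (3.62, adjusted p = 0.0466). Gal had 7 reads in 1 of 1117 glial cells, on replicate 2 of E16.5.

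Glia did not hold Npy evenly. At E14.5, the cluster led by Clec14a and Slitrk6 read 1322 and 991 CPM on the 2 plates, above the 702 and 560 CPM of all glia of the same plates. At E15.5, Npy was at 2658 and 2195 CPM in the cluster led by the mitosis genes Nusap1 and Ube2c, with reads in 100% and 96.2% of its cells. The Ndst3-led and Clec14a-led clusters of that stage read 1910 to 2412 CPM. The cluster led by Mal, Rgcc and Cytl1 read 88.1 and 79.3 CPM. These are descriptions without a test, since clusters of a plate share its animals and library. On both plates of E15.5 the Mal-led cluster lay below the other clusters named here.

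Across stages the share of glial cells with a Npy read was 56.4% at E14.5, 77.3% at E15.5, 90.1% at E16.5 and 87.2% at E17.5. The sums of E16.5 and E17.5 against E14.5 differed by 0.72 ± 0.54 (adjusted p = 0.741). Of all genes in this comparison 0% were called, and 0 of 7 neuropeptide genes, by edgeR or by DESeq2; 2 of the 7 had an unadjusted p under 0.05. The glial sums of E16.5 replicates 1 and 2 rest on 17 and 9 cells that also hold SGN markers. On SS2_20 plates alone, an alternative added after the data were seen, Npy was higher at E16.5 and E17.5 by 1.16 (adjusted p = 0.00827).

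**Figure D2:**
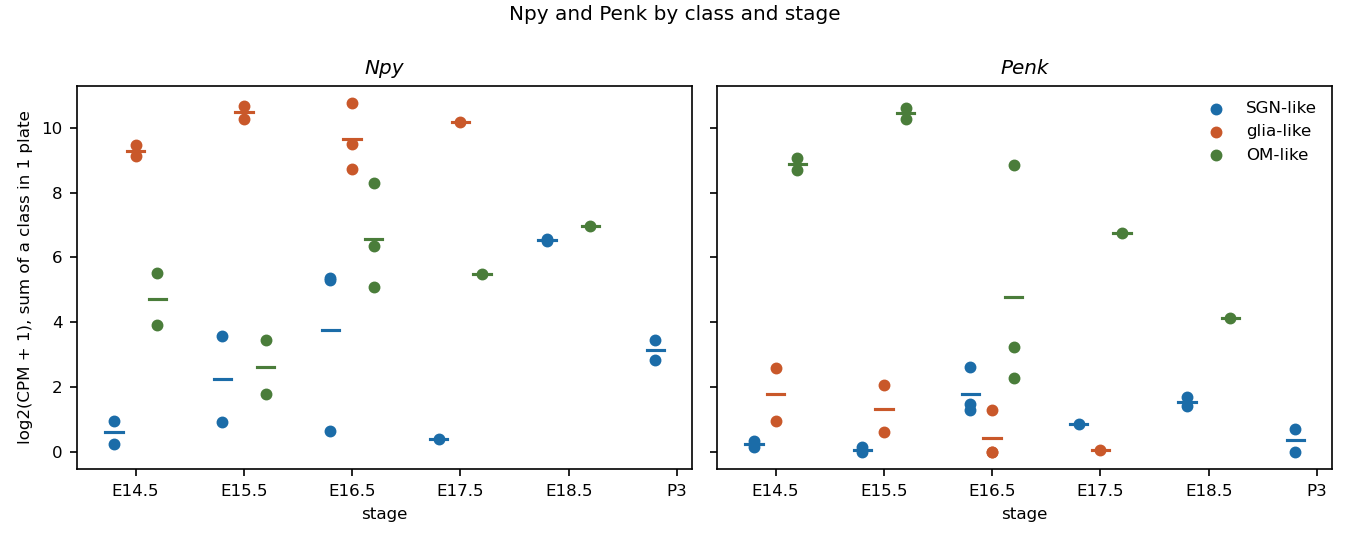
Npy and Penk by stage as log2(CPM + 1), 1 point per plate and class (blue SGN-like, orange glia-like, green OM-like), with short bars at the mean of the points. Glial Npy, from 422 to 1729 CPM, lies above every SGN and OM value, and OM Penk spreads from 3.83 to 1571 CPM.

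In neurons, Npy read 0.172 and 0.947 CPM at E14.5, 0.899 and 10.8 at E15.5, 38.1, 39.9 and 0.556 at E16.5, 0.316 at E17.5, 90.3 and 94.9 at E18.5 and 10.0 and 6.19 at P3. The values above 30 CPM were those of the SS2_18 and SS2_19 plates, and replicate 3 of E16.5, a SS2_20 plate, lay with the earlier stages. With all plates edgeR called none of the stage differences of Npy (E16.5 against E14.5, 5.55 ± 2.24, adjusted p = 0.137; E17.5 and E18.5 against E14.5, 6.81 ± 2.34, adjusted p = 0.0619), but these calls changed with the setting. The difference of E17.5 and E18.5 was called by DESeq2 (adjusted p = 0.00154), by edgeR without the filter on low counts (0.0444), with glial genes kept for clustering (0.00856), with E17.5 as a stage of its own (0.0121), without E16.5 replicate 3 (0.0377) and without E17.5 replicate 1 (0.0128). That of E16.5 was called by DESeq2 (adjusted p = 0.0180) and without E17.5 replicate 1 (adjusted p = 0.0476). On SS2_20 plates alone the difference was -0.0051 at E16.5 and -0.79 at E17.5 (adjusted p = 1.00 and 0.890). The neurons of each plate were split at the median of their glia marker share. At E16.5 the neurons below the median read 0.25 to 0.423 CPM on all 3 plates and those above it 0.853 to 78.3 CPM. At E18.5 the neurons below the median read 13.6 and 20.2 CPM and those above it 165 and 176 CPM, with 435 to 527 and 4350 to 4398 CPM of the glia markers. At P3 both sets read 4.17 to 12.1 CPM, with glia markers of 870 to 4718 CPM. Within the plates of E18.5 and replicates 1 and 2 of E16.5, Npy was thus higher in the neurons with more glia marker RNA, and the part of that RNA in the neuronal level was not tested. Among the neurons below the median, Npy was called higher than at E14.5 at E17.5 and E18.5 (3.91 ± 1.27, adjusted p = 0.0484) and at P3 (3.59 ± 1.29, adjusted p = 0.0434), and its difference at E16.5 was -1.06 ± 1.15 (adjusted p = 0.590).

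**Figure D3:**
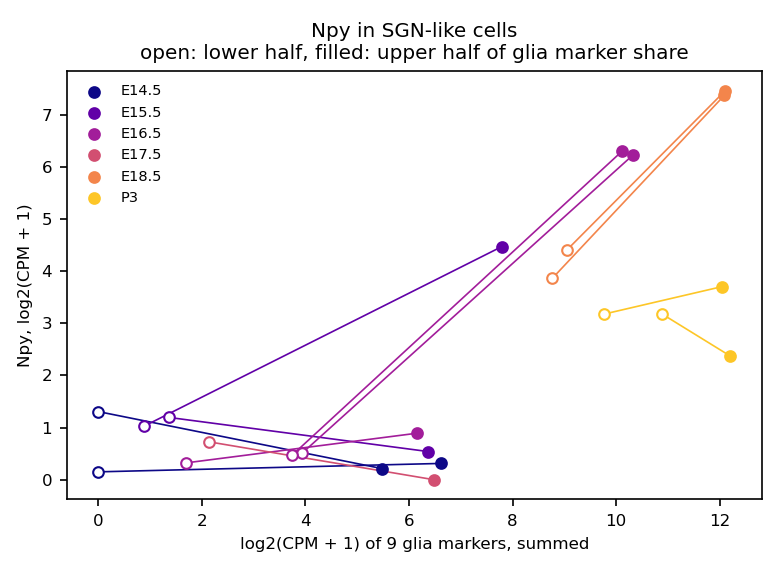
Npy in SGN-like cells against the summed level of 9 glia markers in the same cells, both as log2(CPM + 1), with a line joining the neurons below (open) and above (filled) the median glia marker share of each plate and colours for stages. At E18.5 and on replicates 1 and 2 of E16.5 the filled points lie between 74.4 and 176 CPM and the open points between 0.389 and 20.2 CPM, while the P3 plates stay between 4.17 and 12.1 CPM.

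Penk, the precursor of the enkephalins, was mostly read in the mesenchyme. OM sums read 419 and 538 CPM at E14.5, 1242 and 1571 at E15.5, 8.47, 3.83 and 463 at E16.5, 107 at E17.5 and 16.45 in the 6 cells of E18.5 replicate 1. All 6 SS2_20 plates lay above 100 CPM and the 3 sums of 5 to 10 cells from the other series lay below 20 CPM. SGNs read at most 5.13 CPM and glia at most 5.004 CPM. Hair cell sums read 0 CPM at E16.5 and 0.205 to 33.1 at E18.5, with Penk reads in 7 of 39 hair cells. The difference of hair cells from SGNs was not called (1.69 ± 2.53, adjusted p = 0.635). The small epithelial-like sums, which were not tested, read 47.5 CPM at E14.5 and 0 to 45.3 CPM at E15.5. OM exceeded SGNs by 7.27 ± 1.65 (adjusted p = 0.00141) and glia by 8.43 ± 1.54 (adjusted p = 0.000916). Of 8 neuropeptide genes tested between OM and SGNs 3 were called, against 43.0% of all genes, and of 8 between OM and glia 3 were called, against 13.1%.

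Within the mesenchyme of E14.5, Penk read 718 and 971 CPM in the cluster led by Thsd4 and Nrp2 and 595 and 503 CPM in that led by Col1a1 and Aldh1a2. It read 256 and 70.0 CPM in the cartilage-like cluster led by Matn1 and Acan, and 9.76 and 0 CPM in the cluster led by Coch and Apod. Coch encodes cochlin, a matrix protein of the spiral ligament and limbus. At E15.5 the Col1a1-led cluster read 1636 and 2337 CPM and the Coch- and Otor-led cluster 0 on both plates, with 7 and 13 cells. An unnamed E14.5 cluster led by Gdf5 and Epyc, genes of joint and connective tissue, read 726 and 978 CPM, with reads in 85.7% and 90.6% of its cells. A second unnamed cluster, led by Otor and Snai1, read 8.30 and 11.6 CPM. Penk was thus high or low by cluster in the same way on both plates. Over stages it was found in 42.0% of OM cells at E14.5, 52.9% at E15.5, 23.9% at E16.5 and 13.0% at E17.5. The later stages against E14.5 differed by -0.69 ± 1.36 (adjusted p = 1.00; without E16.5 replicate 3, -2.31, adjusted p = 0.0220), and 0 of 6 neuropeptide genes were called, by edgeR or by DESeq2, where 0.0190% of all genes were; 1 of the 6 had an unadjusted p under 0.05.

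**Figure D4:**
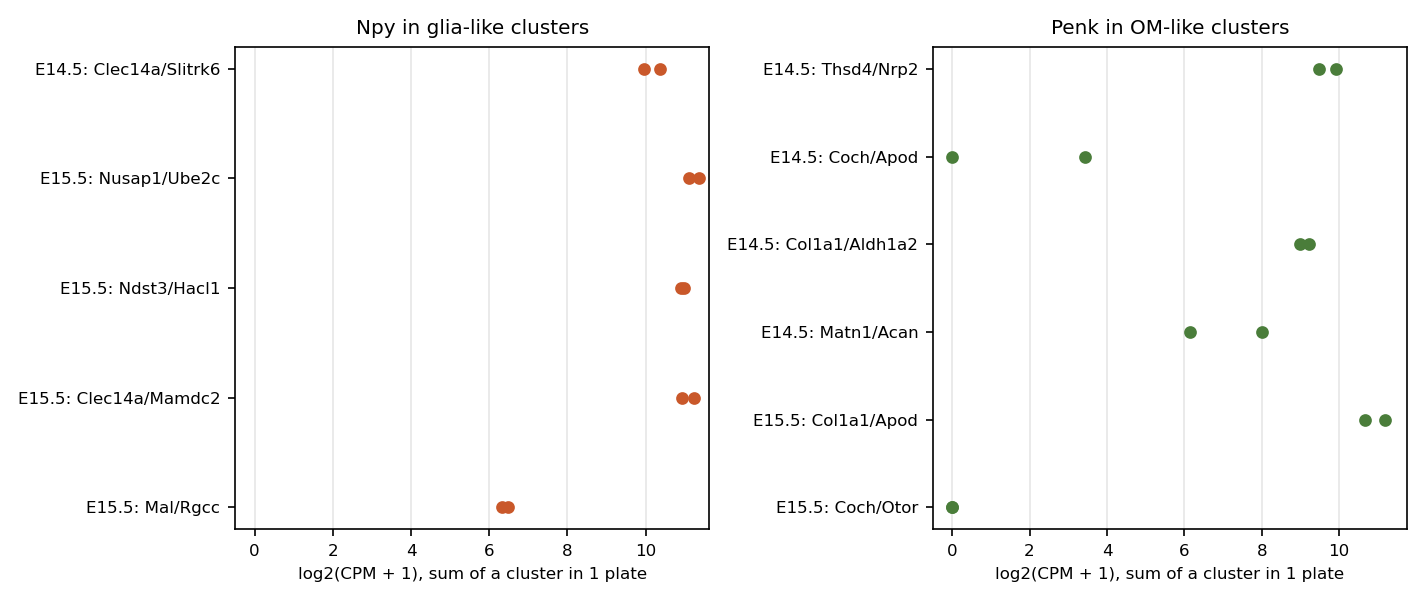
Npy in the glia-like clusters named above (left) and Penk in OM-like clusters (right) of E14.5 and E15.5 as log2(CPM + 1), 1 point per cluster and plate, each cluster named by 2 of its leading genes. At E15.5 Npy spans 79.3 to 2658 CPM between these glia-like clusters and Penk 0 to 2337 CPM between OM-like clusters.

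The other genes of OM were fewer. Calca read 33.8 and 143.03 CPM at E14.5 in OM and 35.3 in replicate 3 of E16.5, and 0 to 6.51 in the other 6 sums. Those E14.5 reads came from 26 of 238 cells, and 5 cells held 59.0% of them. Npy in OM read 2.40 to 45.3 CPM on SS2_20 plates and 80.8 to 317 on the others. It was called higher than in SGNs (2.76 ± 0.97, adjusted p = 0.0266), a call lost without any one of 5 plates (both of E14.5, E15.5 replicate 1, E16.5 replicate 3, E17.5; adjusted p = 0.0517 to 0.0699), without the plate as a block (1.22, adjusted p = 0.282), with glial genes kept for clustering (1.14, adjusted p = 0.468) and with unnamed clusters given a class (1.74, adjusted p = 0.230). The OM sums of the SS2_18 and SS2_19 plates held 331 to 4300 CPM of the glia markers, against 40.4 to 366 CPM on SS2_20 plates, and the part of that RNA in their Npy was not tested. It was called lower than in glia (-5.28 ± 0.97, adjusted p = 0.000995). Gal was called higher in OM than in glia (6.78 ± 1.79, adjusted p = 0.0146), with OM values from 0 to 29.2 CPM, but not without replicate 2 of E14.5 (adjusted p = 0.0616) or of E15.5 (adjusted p = 0.0512), or with glial genes kept for clustering (4.53, adjusted p = 0.155). Adcyap1 had no read in 450 OM cells, and the pooled embryonic SGN level of 3.62 CPM was at least 139.6-fold higher than the 0.0260 CPM that 3 reads over the group would give. Adcyap1 was called lower in OM than in SGNs (-11.12 ± 2.53, adjusted p = 0.00502). Without an OM read the counts do not fix the size of this log2, which ran from -27.8 to -7.88 under the alternatives. Cartpt, at 0 in OM, was not called against SGNs by edgeR (adjusted p = 0.0534), and its SGN level was 2.68 CPM on replicate 2 of E16.5 and 0 to 0.556 CPM on the other 9 embryonic plates. Adjusted p was 0.0464 with glial genes kept for clustering, 0.0259 with unnamed clusters given a class, 0.0290 without the plate as a block and 9.26e-32 by DESeq2. The DESeq2 fit gave a log2 of -26.35, a size that the counts do not fix since OM held no Cartpt read. Its p-value is no measure of strength here.

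Tac1, the precursor of substance P and neurokinin A, was a gene of neurons, and at E18.5 and P3 it was higher in type II-like than in type I-like neurons. Other neurons held it too, at 43.6 to 66.4 CPM in the Ic-like sums of E16.5. SGN sums read 21.0 and 2.33 CPM at E14.5, 8.30 and 9.05 at E15.5, 38.6, 33.9 and 20.9 at E16.5, 21.7 at E17.5, 23.9 and 23.3 at E18.5 and 21.2 and 1.19 at P3. The stages overlapped, and none of the stage differences was called (log2 0.20 to 1.38 against E14.5, adjusted p = 0.395 to 0.892). Without P3 replicate 1, Tac1 was called lower at P3 than at E14.5 (-3.08, adjusted p = 0.0417) and than at E17.5 and E18.5 (-4.01, adjusted p = 0.0263). Type II-like neurons read 184 and 199 CPM at E18.5 (26 and 19 cells) and 168.4 at P3 (18 cells), and the 4 cells of P3 replicate 2, too few for the test, read 46.0 CPM. The 2 type II-like cells of E17.5 gave no sum. The Ia-like neurons read 10.4 and 9.92 CPM at E18.5 and 0.0218 and 0 at P3. Ib-like neurons read 0 to 1.48 CPM. Ic-like neurons read 14.0 and 11.96 CPM at E18.5 and 28.5 and 0 at P3, where 1 cell held 1806 of the P3 reads. All 3 type II sums lay above all 12 type I sums, by 5.50 ± 0.89 (adjusted p = 0.00239). Tac1 reads were found in 92.8% of type II-like cells of all stages, the 2 of E17.5 among them, and, after thinning, in 89.9%.

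Calca, the precursor of calcitonin and CGRP, was also higher in the type II-like neurons. Type II-like sums read 28.0 and 57.1 CPM at E18.5 and 133.2 at P3, the 4 cells of P3 replicate 2 read 91.0, and the type I sums read 0 to 3.57 CPM. The difference was 6.42 ± 0.99 (adjusted p = 0.00107). Calcb, which encodes the second CGRP, read 1.17, 0.444 and 0.777 CPM in type II-like and at most 0.118 in type I-like sums (6.23 ± 1.36, adjusted p = 0.0160), from 26 type II reads in 6 cells, and was not called without replicate 1 or 2 of E18.5 (adjusted p = 0.154 and 0.118) or by DESeq2 (adjusted p = 0.152). Of 7 neuropeptide genes tested between type II and type I, these 3 were called, all higher in type II, where 8.06% of all genes were called higher. Npy (0.91 ± 0.44, adjusted p = 0.190; without P3 replicate 2, 0.96, adjusted p = 0.0125; on E18.5 plates alone, 0.56, adjusted p = 0.0406) was not called with all plates, at 26.04 to 99.1 CPM in type II. Of the 45 type II-like cells of E18.5, 28 held both Tac1 and Calca, 14 Tac1 alone, 0 Calca alone and 3 neither, and of the 22 of P3, 16 held both, 5 Tac1 alone, 0 Calca alone and 1 neither. The type II difference did not pass a test for change between E18.5 and P3 in Calca (2.52 ± 2.04, adjusted p = 0.596) or Tac1 (1.21 ± 2.13, adjusted p = 0.835).

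**Figure D5:**
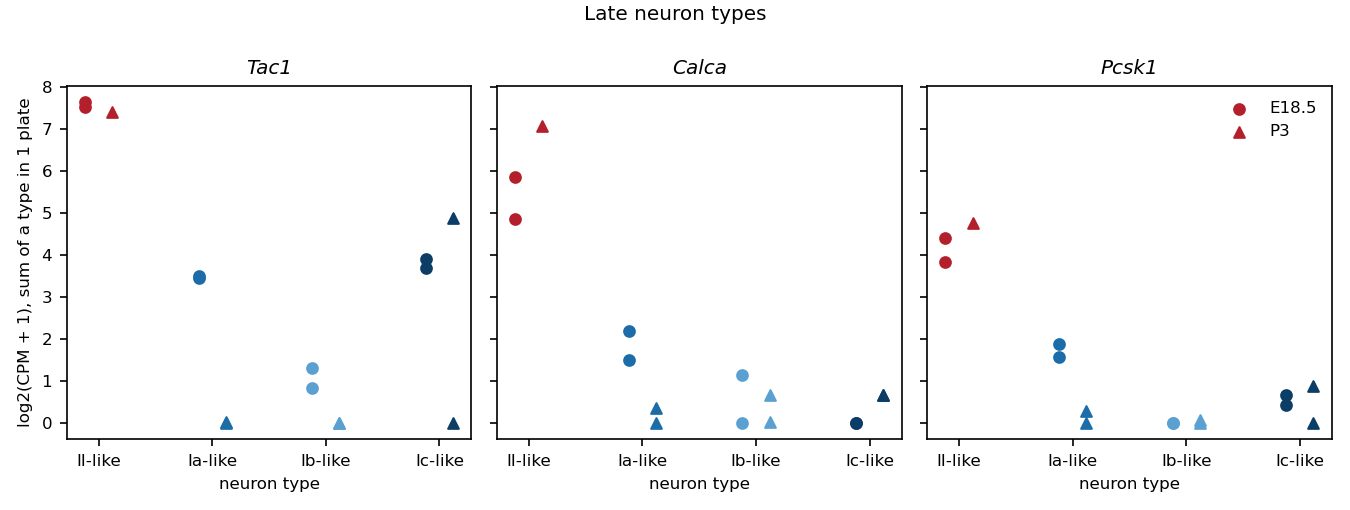
Tac1, Calca and Pcsk1, a precursor convertase, in the late neuron types as log2(CPM + 1), 1 point per plate (circles E18.5, triangles P3; 3 points for the II-like and 4 for each type I class, some overlying). In each panel the II-like points lie above every type I point: 168.4 to 199 CPM for Tac1, 28.0 to 133.2 for Calca and 13.3 to 26.1 for Pcsk1.

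With all plates, edgeR called no neuropeptide gene between the type I subtypes. Between Ib and Ia 0 of 7 neuropeptide genes were called by edgeR, 0 by DESeq2 and 0 at an unadjusted p under 0.05, where 1.68% of all genes were called. Between Ic and Ia 0 of 7 were called by edgeR, where 4.30% of all genes were called; Npy alone had an unadjusted p under 0.05 and was called by DESeq2. Npy read 116 and 132 CPM in Ic at E18.5 against 41.0 and 47.7 in Ia, and 13.0 and 5.98 at P3 against 7.49 and 1.09 (1.34 ± 0.49, adjusted p = 0.179; without P3 replicate 2, 1.26, adjusted p = 0.0389; on E18.5 plates alone, 1.44, adjusted p = 0.00236). Neurons of the E18.5 plates above the median glia marker share read 165 and 176 CPM of Npy, and those below it 13.6 and 20.2. The part of glia RNA in the Npy levels of the late types was not tested. Tac1 was called lower in Ib than in Ia without P3 replicate 1 (-3.04, adjusted p = 0.00851) and on E18.5 plates alone (-3.04, adjusted p = 0.00125). Between Ic and Ia, Tac1 was called higher on P3 plates alone (10.13, adjusted p = 0.0108), where 1 cell held most of the reads, and Calca lower on E18.5 plates alone (-8.43, adjusted p = 0.0333). At E16.5, Ic-like neurons were set against the intermediate class that precedes Ia, Ib and II. Tac1 read 66.4, 65.6 and 43.6 CPM in Ic and 30.3, 16.2 and 27.2 in intermediate neurons, without overlap (1.31 ± 0.29, adjusted p = 0.120). Npy read 29.97, 33.0 and 1.27 against 3.35, 6.53 and 0.373 CPM (2.62 ± 0.42, adjusted p = 0.0512). With unnamed clusters given a class the sign of this Npy difference turned (-0.18, adjusted p = 0.863). Here too the part of glia RNA was not tested. Of 7 genes tested 0 were called by edgeR, where 2.44% of all genes were, 4 had an unadjusted p under 0.05 and DESeq2 called 3 (Penk, Tac1 and Npy). Of all 14392 genes tested, edgeR called 351, DESeq2 called 1196, and 1972 had an unadjusted p under 0.05 in edgeR. Calls over all genes by edgeR rose to 2098 without replicate 3. Without replicate 3, whose Ic-like sum held 18 cells, 5 of the 7 were called: Tac1 (1.58), Npy (2.74) and Adcyap1 (4.29) higher in Ic-like and Calca (-1.53) and Gal (-3.08) lower (adjusted p = 0.000280 to 0.0290).

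Among the SGNs of the stages, Gal, the precursor of galanin, and Adcyap1, the precursor of PACAP, were highest at E14.5. Gal read 47.4 and 21.2 CPM in SGNs at E14.5 and 0.803 to 3.35 CPM in all 10 later sums. It was lower than at E14.5 by -3.96 ± 0.61 at E16.5 (adjusted p = 0.00228), -3.54 ± 0.60 at E17.5 and E18.5 (adjusted p = 0.00219) and -5.02 ± 0.75 at P3 (adjusted p = 0.000311). Adcyap1 read 17.9 and 13.1 CPM at E14.5, 2.33 and 1.75 at E15.5, 3.87, 6.46 and 5.31 at E16.5, 0 at E17.5, 0.711 and 1.15 at E18.5 and 0.273 and 0.414 at P3. It fell at E17.5 and E18.5 (-4.56 ± 0.91, adjusted p = 0.00557) and at P3 (-5.23 ± 1.11, adjusted p = 0.00305), and its difference at E16.5 was not called (-1.60 ± 0.84, adjusted p = 0.245; without E17.5 replicate 1, adjusted p = 0.0350). On SS2_20 plates alone the Gal difference at E17.5 was -3.35 (adjusted p = 0.0692). These 3 comparisons share the 2 plates of E14.5. The P3 plates are of another series than those of E14.5, so stage and series cannot be told apart at P3. Of 9 neuropeptide genes tested, 1 was called at E16.5 (11.7% of all genes), 2 at E17.5 and E18.5 (20.8%) and 2 at P3 (44.7%). Between P3 and E17.5 with E18.5, 0 of 9 were called by edgeR, where 29.4% of all genes were; Gal was the 1 gene with an unadjusted p under 0.05 and the 1 called by DESeq2. Without E16.5 replicate 3 edgeR also called Gal (-1.48, adjusted p = 0.0465), and without P3 replicate 1 it called Penk, which was at 0.637 CPM on that plate and 0 on the other P3 plate (-9.64, adjusted p = 0.0138; against E14.5, -6.58, adjusted p = 0.0326).

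The early levels came from few cells. Of 1163 Gal reads in the SGNs of E14.5, 1162 stood in 4 of 17 Ic-like cells, 474 CPM in 7 cells of replicate 1 and 128 CPM in 10 cells of replicate 2. The other 113 neurons of that stage held 1 read. Of 520 Adcyap1 reads, 460 stood in 8 of the same 17 cells (150 and 76.0 CPM) and 60 in 5 of the other 113 (2.07 CPM). All 4 cells with Gal also held Adcyap1. When only the neurons with a glia marker share below the median were kept, whose E14.5 cells held 1 Gal read, the sign of the fitted Gal difference turned (log2 5.72 at E16.5, 5.83 at E17.5 and E18.5, 4.47 at P3; adjusted p = 0.0385, 0.0235 and 0.0431), and Adcyap1 was no longer called (adjusted p = 0.131 at E17.5 and E18.5, 0.0743 at P3). At E16.5 Adcyap1 remained at 10.9 and 17.2 CPM in the Ic-like sums of replicates 1 and 2 and at 0.254 in replicate 3. The Ic-like against intermediate difference was not called for Adcyap1 (2.78 ± 1.94, adjusted p = 0.606) or Gal (-3.08, adjusted p = 0.330).

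Hair cells were few: 8 cells at E16.5 replicate 3 and 13 and 14 at E18.5 gave a sum. A further cluster of 47 cells from E17.5 and E18.5 had hair cells as its highest marker class. It stayed unnamed under the naming rule, so its cells are not in these sums. The study found vestibular hair cells among its hair cells and left them out. Hair cells were not divided into cochlear and vestibular here, so all hair cell levels can hold both. Gal read 0 at E16.5 and 42.2 and 50.8 CPM at E18.5, above the 2.98 and 2.63 CPM of the SGNs of the same plates. Cartpt, the precursor of the CART peptides, read 0 at E16.5 and 8.33 and 15.8 CPM at E18.5, against 0.237 and 0.276 CPM in SGNs. Calca read 0, 10.4 and 15.97 CPM. The share of hair cells with a read was 30.8% for Gal, 25.6% for Cartpt and 35.9% for Calca. None of the 3 was called against SGNs (Gal 2.60 ± 2.16, adjusted p = 0.373; Cartpt 3.90 ± 3.51, adjusted p = 0.429; Calca 0.84, adjusted p = 0.806). The 1 of 8 genes called, where 30.9% of all genes were, was Npy, lower in hair cells at 0.205 to 3.13 CPM (-5.24 ± 1.95, adjusted p = 0.0462), a call lost without any of the 3 plates with hair cells (adjusted p = 0.0762 to 0.212), without replicate 2 of E14.5 (adjusted p = 0.0507) and without the plate as a block (-4.46, adjusted p = 0.0619). With unnamed clusters given a class, the cluster of 47 cells among them, the Npy difference turned to 0.66 (adjusted p = 0.831). In this contrast the median of all genes was -0.58. The Tac1 value of 284 CPM at E16.5 was 1 cell with 532 reads. Inner and outer hair cells could not be compared, since 11 cells were inner hair cell-like and no cluster was outer hair cell-like.

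Cartpt, Sst and Vip were rare. Outside hair cells, Cartpt reached 2.68 CPM in SGNs at E16.5 replicate 2 and 7.51 CPM in glia at E14.5 replicate 2, where 1 cell held 207 reads. Sst, the precursor of somatostatin, had 739 reads in 13 cells, 98.8% of them in 5 cells, and stood at 6.14 CPM in SGNs of E16.5 replicate 1 and at most 0.584 in the other plates. Vip, the precursor of vasoactive intestinal peptide, reached 0.859 CPM in SGNs at E14.5 replicate 1, from 15 reads of 1 cell.

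The genes that process, pack and receive peptides were read from 4 fixed lists. Over all 16632 genes tested between classes, 3425 were higher and 3612 lower in glia than in SGNs, 3343 higher and 3808 lower in OM and 1882 higher and 3257 lower in hair cells. Among 12 processing genes, 6 were lower and 4 higher in glia than in SGNs. Lower were Pcsk2 (-5.72, adjusted p = 0.000208), which cuts precursors, and Cpe (-3.55, adjusted p = 9.18e-06), which trims the cut ends, with Cpe at 26.7 to 57.5 CPM in glia on SS2_20 plates and 598 to 1031 CPM in SGNs. Among 12 dense core vesicle genes 0 were higher and 8 lower in glia, led by Vgf (-7.15, adjusted p = 0.000218) and Chgb (-7.02, adjusted p = 0.000335). Chgb, which encodes chromogranin B, read 0.208 to 4.51 CPM in glia on SS2_20 plates. OM against SGNs gave 4 higher and 5 lower of the processing genes, and 1 higher and 9 lower of the dense core genes. OM against glia gave Cpe higher (2.36, adjusted p = 0.00136) and none of the 12 dense core genes by edgeR. In hair cells Cadps2, a factor that primes dense core vesicles for release, read 100 to 123 CPM against 0 to 0.719 in SGNs (9.75, adjusted p = 0.000130), and 6 dense core genes were lower. Median differences over the lists were -0.55 (processing) and -4.41 (dense core) in glia against SGNs, 0.11 and -6.03 in OM against SGNs.

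The type II-like neurons differed from type I in 8 of 12 processing genes, 3 higher and 5 lower, where 1211 of all 15021 genes tested were higher and 1417 lower. Pcsk1, a second precursor convertase, read 13.3 and 20.1 CPM in type II at E18.5 and 26.1 at P3, and 0 to 2.68 CPM in the 12 type I sums (5.80 ± 0.66, adjusted p = 0.000322). Pam, which amidates peptides such as substance P and CGRP, was at 21.3 to 38.7 CPM against 1.89 to 23.4 (1.68, adjusted p = 0.00609), and Qpct was also higher (1.47, adjusted p = 0.00210). Pcsk5 was lower (-1.92, adjusted p = 2.45e-05). Of 11 dense core genes tested 4 were higher and 3 lower. Chgb stood at 108 to 186 CPM in type II and 346 to 784 CPM in type I (-1.87, adjusted p = 0.000133). Slc18a2, the vesicular monoamine transporter, was higher (1.19, adjusted p = 0.00335). Pcsk2 distinguished the type I subtypes: 155 to 284 CPM in Ic and 18.3 to 37.5 in Ia (2.68, adjusted p = 0.000157), and 2.01 higher in Ib than Ia (adjusted p = 0.00243).

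Of 23 receptor genes tested between glia and SGNs 3 were higher and 6 lower, a share near that of all genes. Npy6r, a receptor of the NPY family, was at 0 to 10.3 CPM in glia and 0 to 0.757 in SGNs (6.90, adjusted p = 0.00850). In OM, Calcrl (0.383 to 28.3 CPM, against 0 to 1.37 in SGNs) and Ramp2 (14.3 to 156 CPM, against 0 to 2.78) were higher (adjusted p = 0.00237 and 2.73e-05); Calcrl pairs with Ramp proteins to form receptors of CGRP and adrenomedullin. In all 4 of 23 were higher and 5 lower in OM. In type II neurons Oprk1, the kappa opioid receptor, read 37.8 to 58.6 CPM against 0 to 6.76 in type I (5.30 ± 0.95, adjusted p = 0.00275). Tacr1, which binds substance P, was called at 0, 1.00 and 1.75 CPM in type II against 0 to 0.482 CPM in type I (adjusted p = 0.0475). These levels overlapped: on replicate 1 of E18.5 type II was at 0 and Ia at 0.482 CPM. In type II 1 receptor gene of 15, Ramp3, was lower. At E16.5 Oprk1 was at 0 to 0.390 CPM in Ic-like and 11.4 to 23.9 CPM in intermediate neurons (-6.17, adjusted p = 0.0367). In SGNs over stages Galr2, a galanin receptor, was at 10.1 and 30.5 CPM at E14.5 and 0 to 0.494 at E16.5 (-6.01, adjusted p = 0.00763). Npy4r was without a read at E14.5 and at 2.11 to 2.35 CPM at E16.5 (adjusted p = 0.00382). Oprm1, the mu opioid receptor, was at 6.01 and 7.70 CPM at E14.5 and at 0 and 0.00867 at P3 (-9.81, adjusted p = 0.000871). The E14.5 plates are of series SS2_20 and the P3 plates of SS2_15, so stage and series cannot be told apart in that difference. How many cells held these receptor genes was not examined.

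Of 46 other peptide genes on a fixed list, 45 were in the table and 23 could be tested between glia and SGNs: Ucn2, a urocortin, was higher (6.77, adjusted p = 0.00251) and 3 were lower. In hair cells Grp, the gastrin-releasing peptide, read 8.54 to 66.5 CPM against 0 to 0.106 in SGNs (10.17, adjusted p = 0.000284). Uts2b, a urotensin, was at 62.9 and 94.5 CPM in SGNs at E14.5 and at 1.77 to 3.50 at E17.5 and E18.5 (-5.05, adjusted p = 0.000106). In type II neurons Tac2, the neurokinin B gene, was called at 0.818 to 1.67 CPM against 0 to 0.233 (4.68, adjusted p = 0.0158). Pam, the amidating enzyme, was in SGNs at 63.6 and 112 CPM at E14.5 and at 5.09 and 6.997 at P3 (-3.60, adjusted p = 4.73e-05). Syt4, of dense core vesicles, was at 25.998 and 27.7 CPM at E14.5 and at 167 and 182 at P3 (2.97, adjusted p = 1.01e-06). For Pam and Syt4 too, stage and plate series cannot be told apart. How many cells held Uts2b, Pam or Syt4 was not examined.

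The genes whose log2 level was most like that of each neuropeptide gene were found by Pearson's r over the 32 sums of classes and plates. For Npy they were Dbi (0.92), Lonrf3 (0.91) and Dlx1 (0.91), for Penk Col6a2 (0.90), Ranbp3l (0.87) and Cped1 (0.86), for Gal Dixdc1 (0.81) and for Adcyap1 1700125G02Rik (0.87). For Cartpt Ubxn10 (0.75) and Atoh1 (0.75), a hair cell transcription factor, came first, for Calca A830018L16Rik (0.76), for Calcb F930015N05Rik (0.73) and for Tac1 Ppp6r2 (0.70). The sums share library, depth and class, so these values describe likeness only.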

How the data were processed

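Counts were deposited as 1 table of cells by genes. The authors demultiplexed the reads with deindexer, mapped them to mm10 with spike-in sequences by STAR in 2 passes, kept uniquely mapped reads and made raw counts per gene (featureCounts is named in the submitters' notes). The strand setting is not given in the sources used here, so reads of a gene and of a transcript on the other strand cannot be told apart. 1 plate of 384 wells that belongs to no sample was not used.

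Cells with over 1000 genes and under 5% of reads from 92 spike-in sequences were kept. Each stage (E17.5 and E18.5 together) was clustered with scanpy 1.11.5 (2000 variable genes, 30 components, 30 neighbours, Leiden resolution 1) on log values scaled to 1000 counts. The 10 genes, their pathway lists and the authors' glial genes, of which 1364 are in the table and Npy is the only one of the 10, were left out of the features, except that marker genes stayed in. Clusters were named from at least 3 markers; the rule that leaves a cluster unnamed when other genes lead it was set after the cluster tables were seen and before the values of the 10 genes were. The 10 genes and the lists were chosen with earlier results of these data known.

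Counts were summed per class and plate (at least 5 cells) and tested with edgeR 4.0.16 (TMM, filterByExpr, quasi-likelihood) in R 4.3.3, with the plate as a block where classes of 1 plate were compared. P3 plates hold neurons, so the class comparison used the 10 embryonic plates. Where groups share plates the pairing comes from the plate itself; replicate numbers do not pair plates of different stages. The fits were tested on simulated counts. 2 glia-like clusters of E14.5 and E15.5 are not reported on their own here. In each list the up to 4 called genes with the largest change could be named, of which those described are a part. Intervals for shares of cells are exact (95%), and a count of 0 was bounded at 3 reads. Alternatives were the RLE scaling, DESeq2 1.42.0, no filter on low counts, 10 cells a sum, resolution 2, glial genes kept as features, each plate left out, the neurons with a lower glia marker share, 1 plate series or stage alone, and unnamed clusters given their highest class.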

Additional observations from a re-analysis of the deposited data

Results flagged for a closer look

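The 407 cells that stayed unnamed enter none of the comparisons. Levels held by fewer than 5 of these cells at a stage are left out, such as Penk at E15.5 (0.916 to 191 CPM by plate). Listed here are the 15 levels with more than 3 reads held by at least 5 cells at their stage. They are given as values over all unnamed cells of a stage, in CPM. At E14.5 Penk stood at 377 CPM, Npy at 6.63 and Tac1 at 5.76, with the Penk reads mostly in the cluster led by Gdf5 and Epyc. At E15.5 Npy stood at 830 CPM, in a cluster whose highest marker list was that of glia. At E16.5 Tac1 was at 33.2, Calca at 19.4 and Gal at 7.77 CPM. At E17.5 Npy was at 142.8 CPM. At E18.5 Npy was at 86.4, Calca at 6.95, Penk at 1.61, Cartpt at 1.26 and Tac1 at 0.856 CPM. At P3 Npy was at 12.2 and Adcyap1 at 2.13 CPM. Giving these clusters to the class of their highest markers is one of the alternatives described next. No group of plates had the 4 or more samples that a test for a single far value needs.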

How the results depend on the processing

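For the 10 genes, 47 fold changes were called with all plates or under at least 1 alternative, and only these were followed. Their 840 repeats under the alternatives gave the same direction and side of the threshold in 728. A call was gained in 54 and lost in 39, and the sign turned in 19. Causes were not tested. Npy in glia over SGNs (log2 5.04 to 10.35), Gal in glia against SGNs, Penk in OM over SGNs (6.45 to 9.70), Penk and Npy in OM against glia, and Tac1 (4.40 to 9.94) and Calca (5.74 to 8.00) in type II over type I were called under all of their alternatives. In neurons with a lower glia marker share, the stage difference against E14.5 turned to -1.06 for Npy, 5.72 for Gal and 0.024 for Adcyap1 at E16.5, to 5.83 for Gal at E17.5 and E18.5 and to 4.47 for Gal at P3, and that of Tac1 between P3 and E17.5 with E18.5 turned to 0.18. On SS2_20 plates alone Npy turned to -0.0051 at E16.5 and -0.79 at E17.5, and 350 and 925 genes were called, 1 of the 10 genes at E17.5. With unnamed clusters given a class, the signs turned for Tac1 at P3 against E14.5 (-0.16), Npy in HC against SGNs (0.66) and Npy in Ic-like against intermediate neurons (-0.18). With glial genes kept as features Tac1 turned to 1.62 in Ib against Ia and -0.40 in Ic against Ia, and Calca turned to 2.19 in Ic against Ia on P3 plates alone.

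Counts of called genes among the 10 moved under DESeq2 to 2 (E16.5 against E14.5), 1 (P3 against E17.5 with E18.5), 5 (OM against SGNs), 2 (HC against SGNs), 5 (OM against glia), 1 (Ic against Ia) and 3 (early Ic). HC against SGNs went to 0 without the filter, with 10 cells a sum, with glial genes kept, in the neurons with a lower glia share and on SS2_20 plates alone. Without the plate as a block HC against SGNs also gave 0, and the pairing changed none of the other counts by more than 1.5 times. Glia by stage gave 1 on SS2_20 plates, Ib against Ia 1 on E18.5 plates, and Ic against Ia 2 on E18.5 and 1 on P3 plates. Early Ic gave 1 without the filter, 6 with glial genes kept and 1 with unnamed clusters given a class.

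Counts over all genes moved under DESeq2 to 3304 (E16.5 against E14.5), 3527 (OM against glia), 387 (glia by stage), 102 (OM by stage), 799 (Ib against Ia), 1214 (Ic against Ia) and 1196 (early Ic). With 10 cells a sum they were 3298 (HC against SGNs), 3526 (OM against glia) and 0 (OM by stage), and on SS2_20 plates 3709 (OM against glia), 324 (glia by stage) and 12 (OM by stage). Glia by stage gave 2 with RLE scaling, 2 without the filter, 18 at resolution 2, 1 with glial genes kept and 1 with unnamed clusters given a class; OM by stage gave 0 with glial genes kept and 1 with unnamed clusters given a class. With a lower glia share, II against type I gave 1273, Ib against Ia 118 and Ic against Ia 303; Ic against Ia gave 1174 on E18.5 and 356 on P3 plates, and early Ic 1806 with glial genes kept.

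With 1 plate left out in turn, the counts over all genes ran from 1029 to 2620 (E16.5 against E14.5), 2254 to 4176 (E17.5 and E18.5), 2782 to 5295 (P3 against E17.5 with E18.5), 0 to 877 (glia by stage, the highest without E16.5 replicate 3), 0 to 18 (OM by stage), 1298 to 2681 (II against type I), 94 to 147 (Ib against Ia), 213 to 496 (Ic against Ia) and 176 to 2098 (early Ic, the highest without E16.5 replicate 3). The counts among the 10 genes ran from 1 to 3 (E16.5), 2 to 4 (P3 against E14.5), 0 to 2 (P3 against E17.5 with E18.5), 2 to 5 (glia against SGNs), 0 to 1 (HC against SGNs), 0 to 1 (OM by stage), 0 to 1 (Ib and Ic against Ia) and 0 to 5 (early Ic). Differences whose sign turned ran from -3.08 to 2.56 (Tac1, P3 against E14.5), -6.58 to 2.06 (Penk, P3 against E14.5), -4.01 to 0.16 (Tac1, P3 against E17.5 with E18.5) and -2.77 to 0.36 (Calca, Ic against Ia). Not run were stage comparisons of glia and OM without the only E17.5 plate, early types on SS2_20 plates alone and any comparison of hair cell types. Sums of 5 to 26 cells limit what hair cells, type II neurons and the OM of the SS2_18 and SS2_19 plates can show.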
